A study of Mus musculus with 6 samples.

Results

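The clustered protocadherins are a family of cell surface adhesion proteins encoded side by side on mouse chromosome 18, and 57 protein-coding genes of the family were found among the 53801 gene identifiers of the count tables. The members were chosen by gene symbol in the GENCODE M21 annotation of GRCm38 (Pcdha, Pcdhb or Pcdhg, followed by a number or by a, b or c), 14 in the alpha cluster, 22 in the beta cluster and 21 in the gamma cluster. The family itself was proposed with its fold changes in these libraries already known. The fold changes and adjusted p-values of the members below are therefore a description and not independent evidence. The alpha cluster spans positions 36930184 to 37187661 of chromosome 18, the beta cluster 37264938 to 37524479 and the gamma cluster 37661793 to 37841873.

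MC3T3-E1 is a mouse cell line of pre-osteoblasts, the precursors of bone-forming cells. Both groups were infected with lentivirus and selected for 7 days in 5 μg/ml puromycin. The 3 Control libraries came from cells with a scrambled, non-silencing hairpin, and the 3 Hdac4-knockdown libraries from cells with a short hairpin RNA against Hdac4, a class II histone deacetylase. The labels do not number the hairpin, and the study's text gives it as Hdac4-shRNA3. Each group is a puromycin-selected cell population from 1 construct. The labels give the replicates as separate RNA samples of it, and the study's text calls them biological replicates. Whether the cultures were separate is not clear. The p-values therefore measure only the spread between these samples, which may be technical. The comparison asked which transcripts differ when Hdac4 is lowered.

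In the alpha and gamma clusters, each variable first exon has its own promoter and is spliced to constant exons that all genes of the cluster share, whereas each beta gene is a single coding exon of its own. A neuron uses a few of these promoters and so carries its own combination of protocadherins, which bind the same isoform on neighbouring cells and give the neuron a surface identity. Promoter choice is known to involve the insulator protein CTCF, cohesin and DNA methylation. The C-type genes at the 3′ ends of the alpha and gamma clusters are regulated differently from the others. The family is best known from the nervous system.

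This gene structure bears on what could be counted. Of the exon bases of the 12 variable alpha genes, a median of 54.3% also belonged to another gene, and 404 to 2501 bases per gene were its own. In the gamma cluster the median shared part was 45.2%, while 19 of the 22 beta genes shared no exon base. The counting mode and strand setting are not given in the sources used here. Counting by the union mode of HTSeq without regard to strand was assumed here and not tested. Bases shared with a gene on either strand therefore count as shared. Reads on shared bases are then left uncounted, and alpha and gamma counts would rest mainly on variable exons. Pcdhga10 had 0 bases of its own and a count of 0 in every library, from which nothing is read about its expression. Exact 50-base stretches shared with other members made up 10.1 to 23.4% of the first exon in the variable alpha genes and 0 to 12.0% in the beta genes. They made up 39.5% in Pcdhga4, so counts of these genes are less certain.

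Each library held 29096544 to 31651826 counts on genes. Hdac4 was counted 1243, 1204 and 1136 times in the Control libraries and 950, 927 and 887 times in the knockdown libraries, which is 40.3 ± 0.412 against 29.6 ± 0.981 CPM (counts scaled to a common library size with TMM normalization; SD, n = 3). Its log2 fold change was -0.44 (SE 0.057, adjusted p = 8.98e-07, edgeR quasi-likelihood test). A gene was called where the adjusted p lay below 0.05 and the log2 fold change above 0.05 or below -0.05. Of the 14531 genes tested, 38.0% were called higher in the knockdown and 37.1% lower, so a call in either direction was the usual outcome in these libraries. The median log2 fold change over all genes tested was 0.01.

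Clustered protocadherin transcripts other than Pcdhgc3 were scarce in Control cells and, summed, more abundant in knockdown cells. The family summed to 127 ± 1.87 CPM in Control and 222 ± 2.94 CPM in knockdown libraries (SD, n = 3), 1.75 times as much. The alpha cluster went from 0.660 ± 0.157 to 13.2 ± 0.592 CPM, a log2 ratio of 4.32. The beta cluster was 4.06 times higher (23.6 ± 0.781 against 95.8 ± 5.13 CPM). The gamma cluster was 1.10 times higher (103 ± 2.13 against 113 ± 3.87 CPM). All knockdown libraries lay above all Control libraries in each of the 3 totals. Without its most abundant gene, Pcdhgc3, the gamma cluster went from 10.4 ± 1.08 to 28.5 ± 1.49 CPM, a ratio of 2.73. In bulk RNA, more cells that express a gene and more RNA per cell cannot be told apart.

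**Figure D1:**
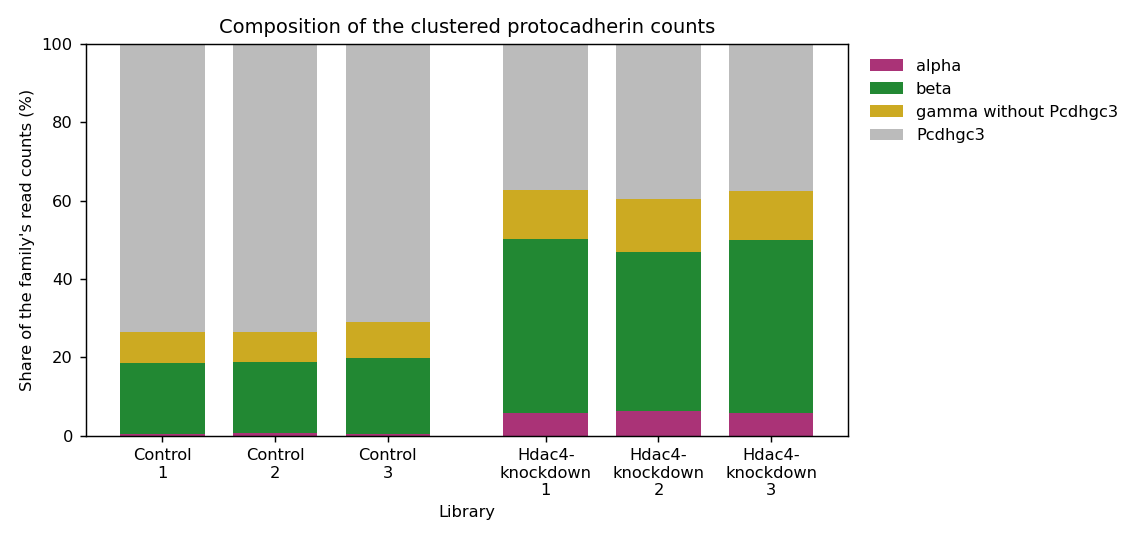
Share of the family's read counts, in percent, taken by the alpha cluster, the beta cluster, the gamma cluster without Pcdhgc3, and Pcdhgc3 alone, for each of the 6 libraries. Pcdhgc3 held 71.0 to 73.6% of the counts in Control and 37.2 to 39.5% in knockdown libraries, and the beta share was higher in every knockdown library than in any Control library.

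The make-up of the family differed with its amount. Pcdhgc3 alone held 73.5%, 73.6% and 71.0% of the family's counts in the Control libraries and 37.2%, 39.5% and 37.6% in the knockdown libraries. The widest 95% Wilson intervals ran from 69.5% to 75.0% in Control and from 36.0% to 40.7% in knockdown libraries, and they cover counting error only. The beta cluster held 18.1 to 19.4% in Control and 40.7 to 44.3% in knockdown, and the alpha cluster 0.389 to 0.636% and 5.76 to 6.25%. More genes were also detected. Control libraries had 29, 27 and 27 members with more than 3 counts, and knockdown libraries 42, 41 and 39. In 10 members, 8 of them beta genes, every knockdown library had more than 3 counts and every Control library 3 or fewer, and 0 members showed the opposite. Of the 28015 genes with a count in any library, 2.99% showed the first pattern and 0.71% the opposite one.

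Of the 57 members, 33 passed the low-count filter and were tested. Among them 26 were called higher and 4 lower, beside 38.0% and 37.1% of all tested genes, and 24 of the 26 had a log2 fold change above 1, beside 16.5% of all tested genes. In 27 members every knockdown library lay above every Control library (38.8% of all tested genes) and in 4 below (38.0% of all tested genes). Of the 4 called lower, 1 had a log2 fold change below -1, beside 10.6% of all tested genes. These counts hold a selection. In 14 of the 33 tested members, 10 of them beta genes, every Control library had fewer than 10 counts, so these genes reached the filter only because the knockdown libraries were high. The 24 untested members had at most 18 counts in any library, and 8 of them, including Pcdhac1 and Pcdhb1, were at 0 throughout.

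**Figure D2:**
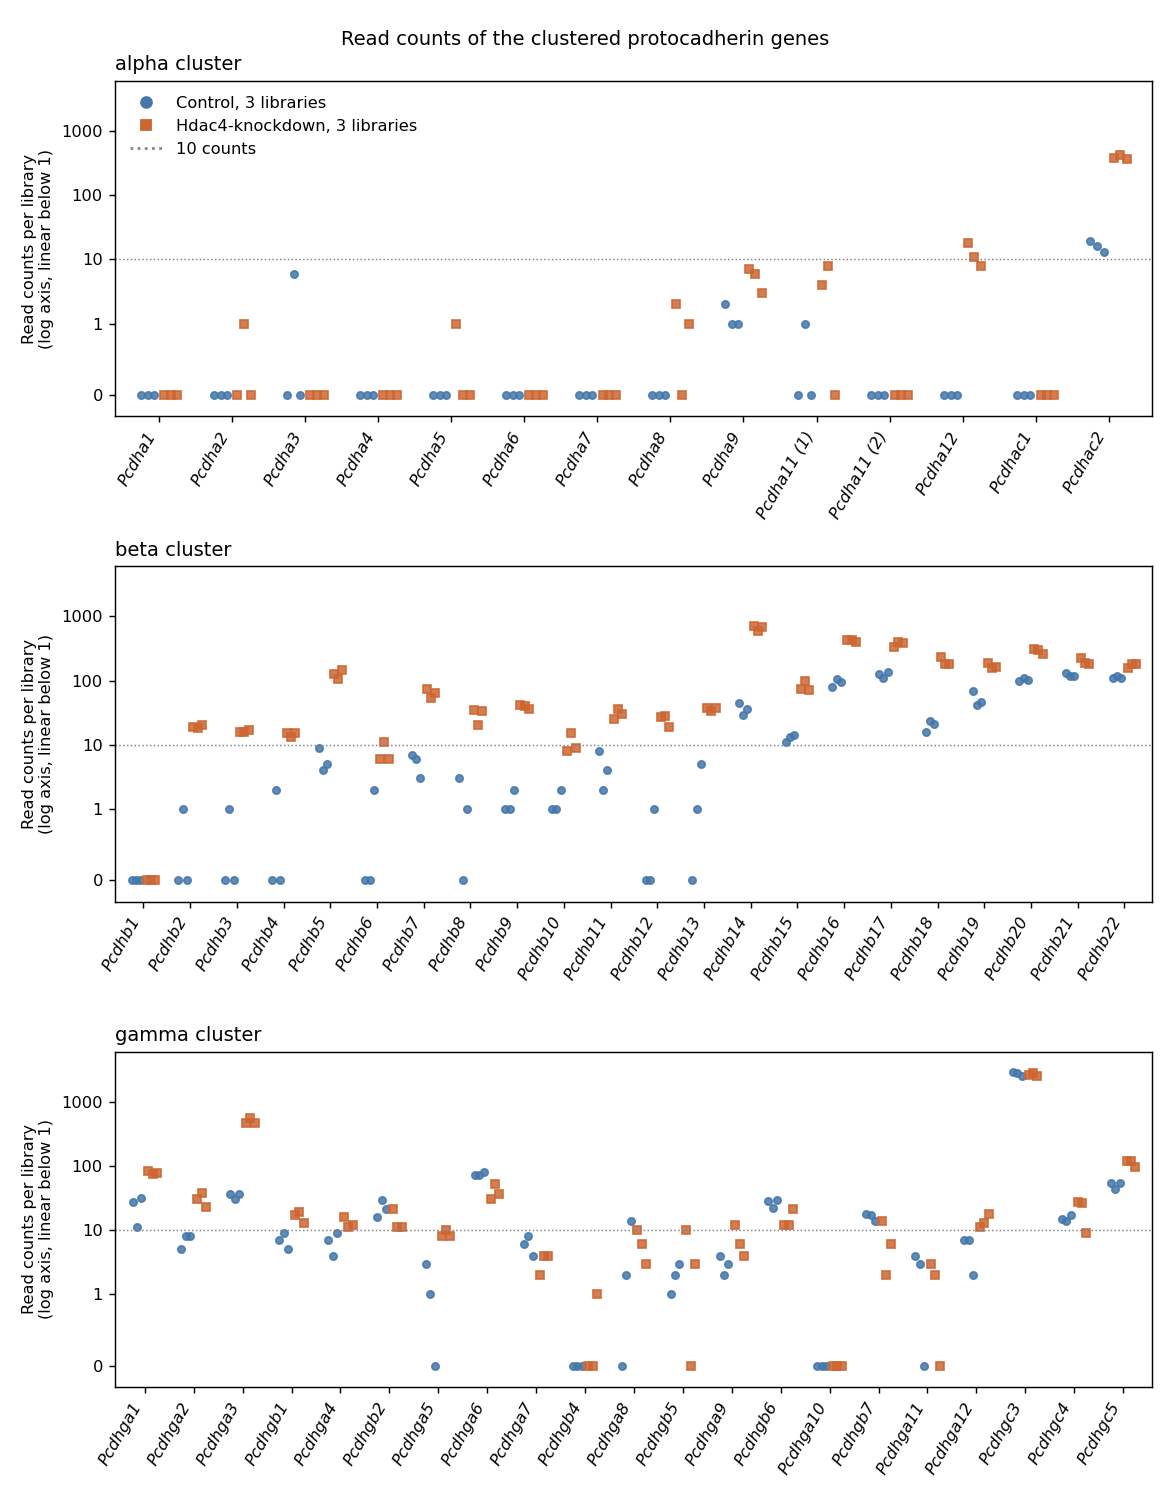
Read counts of each of the 57 members in each of the 6 libraries, on a logarithmic axis that is linear below 1, with genes in chromosomal order. Pcdhac2 and most beta genes lie higher in the knockdown libraries (squares) than in the Control libraries (circles), whereas Pcdhgc3 has 2492 to 2904 counts over both groups.

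In the alpha cluster, almost all counts came from Pcdhac2, the last C-type gene before the constant exons. Pcdhac2 had 19, 16 and 13 counts in Control and 376, 420 and 369 in knockdown libraries. The groups were far apart, and the level rose from 0.537 to 12.5 CPM, or by 4.52 on the log2 scale (SE 0.162, adjusted p = 2.22e-15). The other alpha C-type gene, Pcdhac1, had 0 counts in all 6 libraries, which allows up to 3 counts per library. Pcdha12 was at 0 in the Control libraries and had 18, 11 and 8 counts in the knockdown libraries, a mean CPM at least 3.92-fold above the floor of 3 counts per Control library, but it was below the filter. Pcdha9 had 2, 1 and 1 counts in Control and 7, 6 and 3 in knockdown libraries. The remaining variable alpha genes had at most 8 counts in any library.

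In the beta cluster, all 19 genes that passed the filter were called higher, beside 38.0% of all tested genes. Their log2 fold changes ran from 0.55 to 5.70. In each of them the knockdown libraries lay above the Control libraries, beside 38.8% of all tested genes. In 10 of the 19, every Control library had fewer than 10 counts, so these genes passed the filter only through their high knockdown counts. The beta proteins carry the adhesive extracellular domains and lack the constant cytoplasmic part of the alpha and gamma proteins. The most abundant beta gene in knockdown cells by CPM was Pcdhb14, with 45, 29 and 36 counts in Control and 705, 581 and 675 in knockdown libraries. It rose from 1.23 ± 0.253 to 21.1 ± 2.65 CPM (SD, n = 3), by 4.09 on the log2 scale (SE 0.146, adjusted p = 2.18e-15). This gene alone made up 18.8% of the summed rises over members with a higher knockdown mean. Without it, the beta total still differed by 1.74 on the log2 scale, against 2.02 with it.

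Beta genes at the 5′ side of the cluster were near the detection limit in Control cells. Pcdhb5 had 9, 4 and 5 counts in Control and 127, 106 and 148 in knockdown libraries, with a log2 fold change of 4.31. Pcdhb7 had 7, 6 and 3 counts against 75, 53 and 64 (3.49 on the log2 scale), and Pcdhb9 had 1, 1 and 2 against 42, 40 and 36 (4.69). In each of the 3 genes, the lowest knockdown library exceeded the highest Control library several times over. All 3 are among the genes that passed the filter only through high knockdown counts, so this separation is a description and no separate support. Pcdhb2, Pcdhb3, Pcdhb4 and Pcdhb12 had only 1 or 2 counts in the Control libraries together and 43 to 74 in the knockdown libraries together. The counts behind these ratios are small. For Pcdhb12 the ratio of the summed counts, scaled by the summed library sizes, was 70.6 with a 95% counting interval of 12.3 to 2826, and for Pcdhb4 it was 20.5 with an interval of 5.34 to 175.

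The 3′ genes of the beta cluster had counts in every Control library. Pcdhb16 had 79, 107 and 94 counts in Control and 434, 431 and 403 in knockdown libraries, and rose by 2.11 on the log2 scale. Pcdhb18 went from 16, 23 and 21 to 234, 184 and 180 counts and rose by 3.24, and Pcdhb15 from 11, 13 and 14 to 75, 97 and 71 and rose by 2.59. Pcdhb17 (127, 111 and 136 against 334, 392 and 389 counts), Pcdhb19 (68, 41 and 46 against 185, 158 and 160) and Pcdhb20 (100, 109 and 102 against 315, 302 and 259) rose by 1.51, 1.63 and 1.42. In all of these genes the groups were apart. The smallest differences were in the last genes of the cluster. Pcdhb21 had 129, 118 and 116 counts in Control and 222, 189 and 182 in knockdown libraries (log2 fold change 0.64, SE 0.131, adjusted p = 2.13e-04). Pcdhb22 had 110, 118 and 108 against 156, 179 and 181 (0.55, SE 0.135, adjusted p = 0.00116).

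**Figure D3:**
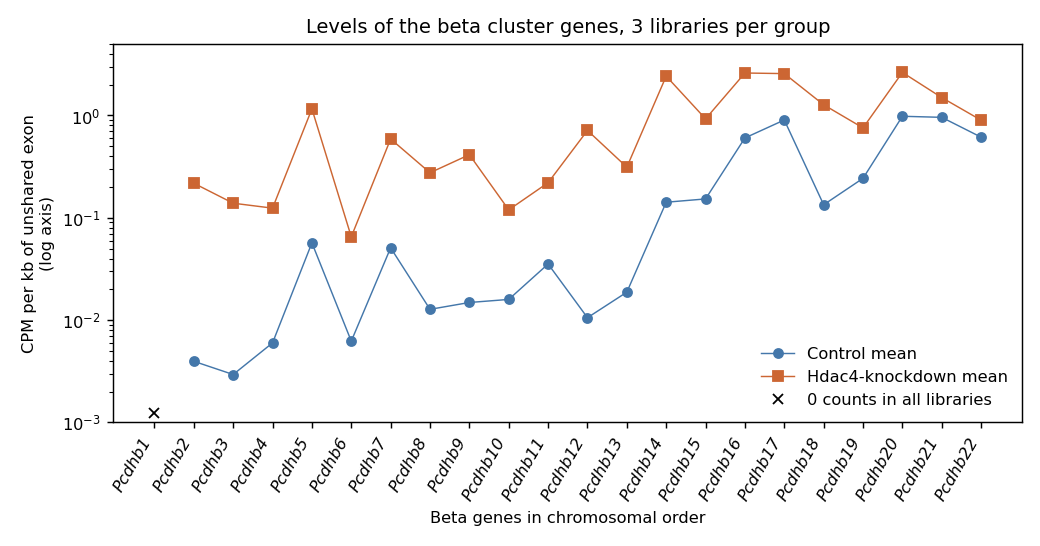
Mean level of each of the 22 beta genes in Control (circles) and knockdown (squares) libraries, n = 3 each, in CPM per kilobase of exon that no other gene shares, on a logarithmic axis and in chromosomal order. The Control line lies higher over Pcdhb14 to Pcdhb22 than over all earlier genes, and the knockdown line mostly so. Neither line rises steadily within Pcdhb14 to Pcdhb22. The distance between the lines is smallest at Pcdhb21 and Pcdhb22.

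In Control cells, levels per length were higher on the 3′ side of the beta cluster than on its 5′ side, without a steady rise along either side. The 10 tested genes of the 5′ side had fewer than 10 counts in every Control library, so their order by level is uncertain. Over the 19 tested beta genes, Spearman's rho between position and Control CPM per kilobase was 0.879, and between position and knockdown CPM per kilobase 0.733. Between position and log2 fold change it was -0.854. The points share the same 6 libraries, the fold change contains the Control level, and the filter kept the 5′ genes only where knockdown counts were high, so these values describe the cluster and are given without a test. Taking Pcdhb1 to Pcdhb13 against Pcdhb14 to Pcdhb22, a division chosen after the values were seen, the first summed to 0.820 CPM in Control and 13.5 CPM in knockdown libraries, 16.5 times as much. The second went from 22.8 to 82.3 CPM, 3.61 times as much. Pcdhb14 to Pcdhb22 held 95.9 to 97.2% of beta counts in Control and 85.2 to 86.6% in knockdown libraries.

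Genes of the gamma cluster were called in both directions. Of its 13 tested genes 6 were called higher (46.2%), 4 lower (30.8%) and 3 neither, near the 38.0% and 37.1% of all tested genes. Pcdhga2, Pcdhgb1, Pcdhga4 and Pcdhga12 had fewer than 10 counts in every Control library, so they passed the filter only through their knockdown counts. All of these except Pcdhga4 are among the genes called higher, so the share called higher holds this selection. Pcdhga3 stood out, with 36, 30 and 36 counts in Control and 460, 559 and 465 in knockdown libraries. It rose from 1.15 ± 0.133 to 15.9 ± 1.30 CPM (SD, n = 3), by 3.79 on the log2 scale (SE 0.137, adjusted p = 2.66e-15). It was 14.0% of the summed rises, second to Pcdhb14. Pcdhga1, the first gene of the cluster, had 27, 11 and 32 counts in Control and 82, 74 and 77 in knockdown libraries, and rose by 1.66 on the log2 scale. The calls of Pcdhgb1 and Pcdhga12, both with a mean under 20 counts, were lost in 6 and 4 of 14 fits, with log2 fold changes of 0.96 and 0.94 without Control 3.

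Other genes of the gamma cluster were lower. Pcdhga6 had 73, 71 and 79 counts in Control and 30, 52 and 36 in knockdown libraries, and the groups did not overlap. It fell from 2.51 to 1.26 CPM, with -0.99 on the log2 scale (SE 0.231, adjusted p = 7.57e-04), and was called lower in all 15 fits that were run. Pcdhgb6 had 28, 22 and 29 counts against 12, 12 and 21, with -0.87 on the log2 scale (SE 0.355, adjusted p = 0.0328). Its call was lost in 6 of the 15 fits, 4 of them without 1 library each (Control 1, Control 3, knockdown 1 or knockdown 2), with values of -0.86, -0.78, -0.73 and -0.71. Pcdhgb7, named here only because it was 1 of the 4, had 18, 17 and 14 counts against 14, 2 and 6 (-1.21). Its call was lost with DESeq2 (-1.23) and without Control 1, 2 or 3 or knockdown 2 or 3, with -0.74 on leaving out knockdown 2. The 6 gamma-B genes summed to 2.49 ± 0.178 CPM in Control and 1.86 ± 0.514 CPM in knockdown libraries with overlapping groups, while the 12 gamma-A genes summed to 5.70 and 22.4 CPM. Pcdhga3 carried most of that difference, and the other 11 gamma-A genes summed to 4.45, 3.91 and 5.30 CPM in Control and 6.63, 6.70 and 6.15 CPM in knockdown libraries. The gamma-B sum leaves out Pcdhgb8, which is annotated as a polymorphic pseudogene and is not a member. Pcdhgb8 went from 0.370 to 1.89 CPM, a rise larger than the fall of the gamma-B sum, so the direction of that sum rests on the exclusion.

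The 3 gamma C-type genes did not move together. Pcdhgc3, which is known to bind the Wnt pathway scaffold Axin1, had 2904, 2776 and 2553 counts in Control and 2594, 2818 and 2492 in knockdown libraries. On the CPM scale the groups were apart, at 92.5 ± 2.74 against 84.7 ± 2.44 (SD, n = 3), with -0.13 on the log2 scale (SE 0.0458, adjusted p = 0.0179). That call depended on the scaling, on the filter and on single libraries. The log2 fold change was -0.04 with upper quartile normalization, -0.07 with library size alone and -0.09 with a filter of 10 counts in each library. Without Control 1, knockdown 1 or knockdown 3 it was -0.12, -0.11 and -0.10. The call was lost in all of these fits. Pcdhgc5 had 55, 43 and 54 counts in Control and 118, 119 and 97 in knockdown libraries, and rose by 1.06 on the log2 scale (SE 0.185, adjusted p = 3.68e-05). Pcdhgc4 had 15, 14 and 17 counts against 27, 26 and 9, overlapping groups and a log2 fold change of 0.35 (adjusted p = 0.429). Part of the Pcdhgc3 exon overlaps the antisense transcript BC037039, and its reads carry no strand.

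Per kilobase of unshared exon, Pcdhgc3 had the highest level of the family in both groups, 50.8 CPM per kilobase in Control and 46.5 in knockdown libraries. In knockdown libraries, Pcdhga3 (6.11 CPM per kilobase) and Pcdhac2 (4.12) came next, ahead of Pcdhb20 (2.64), Pcdhb16 (2.60), Pcdhb17 (2.57) and Pcdhb14 (2.42), which stood close together. In Control libraries, Pcdhga3 was at 0.441 and Pcdhac2 at 0.178 CPM per kilobase, below the 3′ beta genes Pcdhb20 (0.983), Pcdhb21 (0.960) and Pcdhb17 (0.904).

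**Figure D4:**
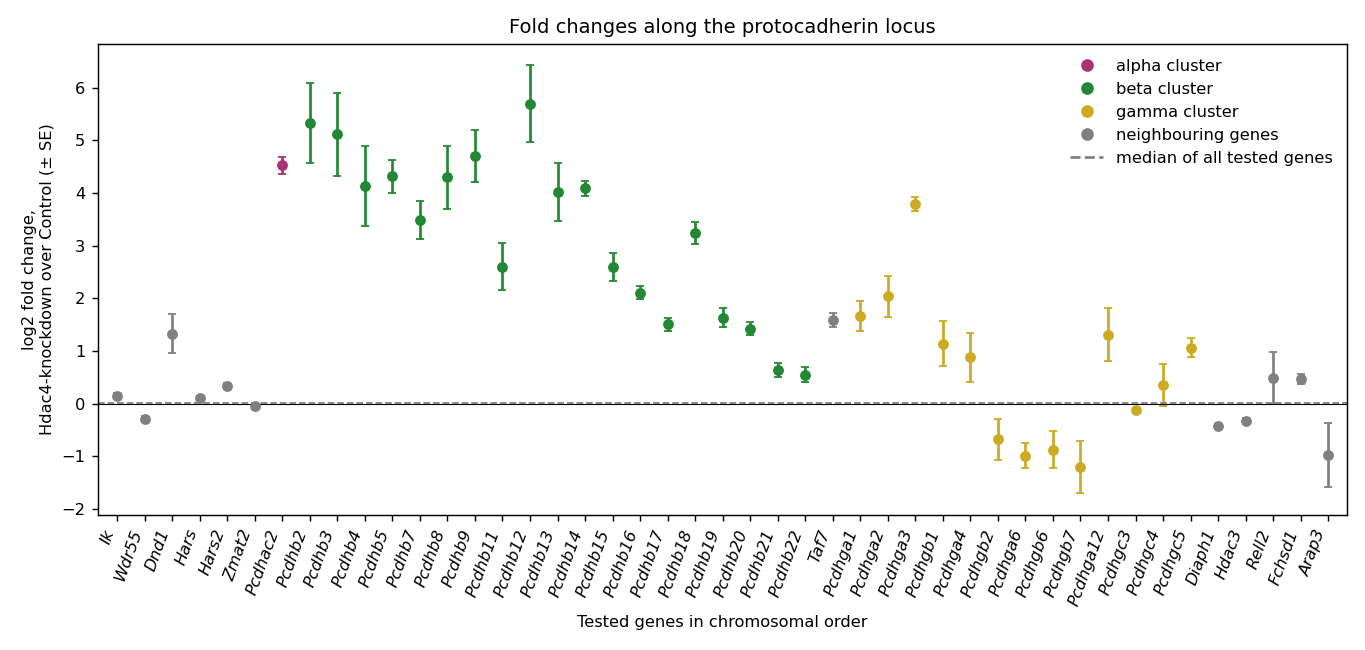
Log2 fold change of Hdac4-knockdown over Control with its standard error (3 libraries per group) for the 33 tested members and 12 tested neighbouring genes, in chromosomal order. The dashed line is the median of all tested genes (0.01). Taf7, between the beta and gamma clusters, was at 1.58, while Diaph1 and Hdac3, beyond the gamma cluster, were below 0.

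Of 13 genes around the clusters 12 were tested, and 6 were called higher, 3 lower and 3 neither, beside 38.0% and 37.1% of all tested genes. Taf7, a subunit of the general transcription factor TFIID that lies between the beta and gamma clusters, had 76, 86 and 84 counts in Control and 269, 240 and 263 in knockdown libraries and rose by 1.58 on the log2 scale (SE 0.135). Dnd1, a gene for an RNA-binding protein of germ cells on the alpha side, rose by 1.33 (SE 0.367). Diaph1, an actin-nucleating formin just beyond the gamma cluster, fell by 0.43 on the log2 scale (SE 0.0430). Hdac3, a class I histone deacetylase next to it, fell by 0.32 on the log2 scale (SE 0.0491).

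Of 18 genes for known regulators of protocadherin promoters, all tested, 6 were called higher and 9 lower, beside the 38.0% and 37.1% of all tested genes. The cohesin subunit gene Rad21 fell from 567 to 264 CPM (log2 fold change -1.10, SE 0.0415). The subunit genes Smc1a, Stag1 and Stag2 were also called lower, while Smc3 was called higher (log2 fold change 0.15, overlapping groups). Ctcf fell by 0.44 on the log2 scale, and Smchd1, whose protein keeps silenced clusters compact, fell by 0.59 on the log2 scale. The DNA methyltransferase genes Dnmt3a and Dnmt3b rose by 0.93 and 0.42. Dnmt1, a more abundant methyltransferase gene, fell from 328 to 226 CPM (log2 fold change -0.54). Setdb1, a histone H3 lysine methyltransferase, rose by 0.14. The Dnmt3b and Setdb1 calls were lost in 3 of 15 fits each.

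Of 18 genes for cytoplasmic partners and processing enzymes of the protocadherins, all tested, 7 were called higher and 9 lower, beside 38.0% and 37.1% of all tested genes. Ret, a receptor tyrosine kinase that associates with alpha and gamma protocadherins, had 12, 11 and 12 counts in Control and 78, 75 and 76 in knockdown libraries and rose by 2.63 on the log2 scale (SE 0.27). Ptk2b, the kinase Pyk2 that binds the constant cytoplasmic domains, fell from 68.2 to 24.8 CPM (log2 fold change -1.46, SE 0.0627). Rac1, which had the highest mean count over the 6 libraries, was called lower at -0.24 with overlapping groups, and this call held in 8 of 15 fits.

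The non-clustered protocadherins lie elsewhere in the genome as separate genes. Of 12 such genes 5 were tested, of which 3 were called higher and 2 lower, beside 38.0% and 37.1% of all tested genes. Pcdh10 had 6, 15 and 14 counts in Control and 139, 154 and 143 in knockdown libraries and rose by 3.56 on the log2 scale (SE 0.252). Pcdh1 had 3107, 3152 and 3068 counts against 423, 406 and 398 and fell by 2.99 on the log2 scale (SE 0.0571). Pcdh19, which had the highest mean count over the 6 libraries, rose by 0.59 (SE 0.0491).

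Markers of several cell types also differed between the groups, and their part in the protocadherin results was not tested. Of the osteoblast markers, 6 of 9 were tested, with 5 called higher and 1 lower, beside 38.0% and 37.1% of all tested genes. The summed level of the 9 markers went from 5693 to 5736 CPM in Control to 23321 to 24217 CPM in knockdown libraries. The collagen genes Col1a1 and Col1a2 carried this difference, and the other 7 markers summed to 4140 to 4183 CPM in Control and 3988 to 4113 CPM in knockdown libraries. Spp1, the bone matrix protein osteopontin, named here as the 1 marker called lower, fell from 3154 to 2046 CPM. Col1a1, the main bone collagen chain, rose by 5.03 on the log2 scale and Sp7, an osteoblast transcription factor, by 4.18, while Alpl, the bone alkaline phosphatase, had at most 3 counts in any library. Neuron markers, which matter here because neurons use this family most, summed to 729 to 747 CPM in Control and 133 to 139 CPM in knockdown libraries. Of 6 tested neuron markers 1 was called higher and 5 lower, beside 38.0% and 37.1% of all tested genes. Rbfox3, Snap25, Elavl3 and Dcx had 3 or fewer counts in every library. Syt1, a synaptic vesicle protein and the 1 marker called higher, had 2, 0 and 4 counts in Control and 56, 43 and 57 in knockdown libraries. The neurofilament gene Nefl fell from 250 to 0.0319 CPM and Nefm from 181 to 0.359 CPM.

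All 7 skeletal muscle markers were called lower, beside 37.1% of all tested genes. Their sum went from 914 to 951 CPM in Control to 130 to 150 CPM in knockdown libraries. Myf5 and Myod1, the early myogenic factors, fell by 3.07 and 2.92 on the log2 scale, and Des, the muscle intermediate filament and most abundant of the list, fell by 2.86. Endothelial markers summed to at most 3.16 CPM and leukocyte markers to at most 6.08 CPM in any library. The endothelial adhesion gene Pecam1 rose from 0.214 to 2.38 CPM. The myeloid genes Lyz2 and Csf1r rose from 0.0891 to 2.66 CPM and from 0.147 to 0.686 CPM, while Cd68, with the highest mean count of the list over the 6 libraries, was at 1.78 and 2.05 CPM with overlapping groups. Emcn and Adgre1, defining markers of endothelial cells and macrophages, were at 0 in every library. Of the 5 adipocyte markers 2 were tested, and both, Pparg and Cebpa, were called lower (28.4 to 3.40 CPM and 16.3 to 5.71 CPM), beside 37.1% of all tested genes.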

How the data were processed

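The authors deposited 1 table of raw read counts per gene for each of 6 libraries (poly-A selected RNA, unstranded kit, paired-end reads). The submitters' processing notes name FastQC, STAR 2.7.3a, HTSeq 0.12.4 and the build mm10. The counting mode, strand setting and annotation are not given in the sources used here. Summary lines were left out of library sizes. Reads outside genes were 3.17 to 5.07% of all lines' counts and ambiguous reads 5.84 to 6.51%.

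Of 53801 identifiers, 53706 were found in GENCODE M21 (GRCm38, the same build as mm10), which gave symbols, positions and exons. Counts were tested with edgeR 4.0.16 in R 4.3.3 (TMM scaling, the default low-count filter of filterByExpr, and the quasi-likelihood test, adjusted over the 14531 tested genes by Benjamini-Hochberg). CPM used the TMM-scaled library sizes. The fit was checked on simulated data with few changed genes and a fixed spread between replicates. Most tested genes were called here, so that check does not give the error rate in these libraries. Replicates of a group differed by more than sampling noise (chi-square per degree of freedom 3.23 to 8.36). Members with at least 20 counts on average that passed the filter, and the C-type genes, are named with values. From each list the 2 called genes with the largest change and the most abundant gene are named, with Ctcf, Rad21, Smchd1, Dnmt3b, Setdb1, Taf7, Diaph1 and Hdac3. Some other list genes are named where calls went both ways. The members and lists were chosen with earlier results of these data known.

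Alternatives were DESeq2 size factors, upper quartile or library size normalization, no filter, a filter of 10 counts in each library, a replicate block, larger thresholds (0.5 and 1), limma-voom (limma 3.58.1), DESeq2 1.42.0, and fits that left out 1 library at a time. The exact permutation test of 3 against 3 cannot go below p = 0.1 and was not used.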

Additional observations from a re-analysis of the deposited data

Results flagged for a closer look

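The locus holds 28 other annotated transcripts besides the 57 members, of which 11 had a count in any library and 5 were tested. Taf7, described above, is among the 5, and the others were examined because no total or list above includes them. Of these, 3 were called higher in the knockdown libraries, and BC037039, antisense to Pcdhgc3, was not (log2 fold change 0.70, adjusted p = 0.093, overlapping groups). The untested Gm8242 had 4, 1 and 9 counts in Control and 2, 3 and 0 in knockdown libraries. Pcdhgb8, a gamma gene annotated as a polymorphic pseudogene and so not a member, had 13, 10 and 10 counts in Control and 69, 59 and 48 in knockdown libraries (log2 fold change 2.33, SE 0.305, adjusted p = 1.05e-06). Gm10544, a noncoding transcript on the opposite strand of the alpha cluster, had 2, 6 and 8 counts against 33, 37 and 37 (2.64, SE 0.417, adjusted p = 1.15e-05). The long noncoding RNA 3222401L13Rik, between Taf7 and Pcdhga1, had 1, 6 and 11 counts against 16, 21 and 21 (1.60, SE 0.507, adjusted p = 0.00814), and its call was lost in 1 of 14 fits. The adjusted p-values are those of edgeR's quasi-likelihood test over all genes. In the 3 called higher the groups did not overlap, beside 38.8% of all tested genes with every knockdown library above every Control library. The reads carry no strand, so antisense transcripts are less certain where exons overlap.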

How the results depend on the processing

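Of the 26 members called higher, 24 were called in every one of the 15 fits that tested them, and of the 4 called lower, 1 was (Pcdhga6). Only 13 of the 26 had 10 or more counts in every Control library. The others passed the filter only through high knockdown counts, so their steady calls are no separate support. A filter of 10 counts in each library leaves fewer genes to test. With it 17 members were tested, of which 13 were called higher and 2 lower. Over all genes, 4709 were called higher and 4670 lower of 12487 tested with this filter. DESeq2 and upper quartile normalization each gave 2 called lower, and a threshold of 1 gave 1. Over all genes, DESeq2 gave 5258 called lower of 20779 and upper quartile normalization 4608 of 14531. Leaving out 1 library each gave 25 to 27 members called higher and 1 to 3 called lower (4 with all libraries), with 1 on leaving out Control 1 and 2 on leaving out Control 3, knockdown 2 or knockdown 3. Over all genes, leaving out 1 library each gave 5370 to 5519 called higher and 5165 to 5402 lower. Thresholds of 0.5 and 1 gave 3579 and 2397 genes called higher and 2879 and 1543 lower over all genes. The log2 ratio of the alpha total was 2.61 without Pcdhac2, that of the beta total 1.74 without Pcdhb14, and that of the gamma total 1.45 without Pcdhgc3 and 0.23 with upper quartile normalization. The largest shift of the median of all genes under another scaling was 0.089, with upper quartile normalization. The causes of the lost calls were not tested. None of the named members, totals or counts changed direction in these fits. At these depths a member with 3 or fewer counts in a library cannot be told from one without expression.

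Replicate numbers were shared by the groups, but the labels do not say that they pair the samples, and deviations of same-numbered libraries correlated at only -0.01, 0.03 and 0.02. With a replicate block, 26 members were called higher and 4 lower, and 5523 genes were called higher and 5441 lower over all genes (5521 and 5393 without it).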
